A study of Mus musculus with 8 samples.

Results

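The genes described here are 9 B cell genes grouped around Ms4a1, the gene of the surface protein CD20. They are Ms4a1, Cd22 and Ly6d, Cd79a and Cd79b, Ighm and Igkc, and Ebf1 and Pax5. Members were found by gene symbol, and 8 of the 9 matched a row among the 28239 symbols. Igkc, the constant region of the kappa light chain, was not analysed here. The genes were chosen on the difference in counts between the groups, in which Ms4a1 stood out, so that difference is given below as a description and without a test.

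The cells were naive CD4+ T cells isolated by negative selection from the spleens of 10 to 12 week old female and male mice on the C57BL/6 background, either WT or Alox15-/-, a deletion present in every cell of the animal. All 8 cultures received TGF-β at 5 ng/ml and IL-2 at 100 U/ml together with 1 bead per cell that carried antibodies to CD3 and CD28, which drives naive cells toward regulatory T cells (Tregs), and RNA was taken on day 2. RNA was profiled by MACE-seq, which counts sequence tags near the 3′ end of each transcript, in 4 libraries of each genotype. The study describes the samples of the deleted genotype as separate mice, but the labels tie no library to an animal, so the spread between libraries may be technical in part. WT mice came from Charles River and Alox15-/- mice from The Jackson Laboratory, so genotype and supplier cannot be told apart. The labels name spleens as the material preserved, whereas the methods name the cultured cells. Libraries held 3723151 to 9538962 counted tags, and the median was 4794416 for those labelled Alox15-/- and 6417785 for WT. The targeted gene, Alox15 (chr11:70344152-70352031, minus strand, GRCm38), went against the labels: its level was 63.4 to 70.1 CPM, the count scaled to a library of 1000000 counts, in the libraries labelled Alox15-/- and 1.87 to 8.98 CPM in the WT libraries. MACE-seq reads the 3′ end, and which part of the gene is deleted is not given in the sources used here, so this level does not check the label, and the wording "libraries labelled Alox15-/-" is kept throughout.

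B cells recognise antigen through a membrane antibody whose heavy chain, IgM in naive cells, pairs with a kappa or lambda light chain and signals through the partner proteins CD79a and CD79b. The transcription factors EBF1 and PAX5 set up and hold this identity, switching on genes such as Cd79a while holding back genes of other lineages. A spleen is rich in B cells, which the negative selection of naive T cells is meant to remove. In bulk RNA, fewer cells of a type and less RNA per cell cannot be told apart.

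EBF1 is known to act on the Cd79a promoter, so the DNA upstream of Cd79a is shown here, beside that of Pax5, another member. Only bases outside the annotated exons of each gene are printed. RefSeq windows (GRCm38.p6) of 250 bases before and 50 bases after a start were held for 4 of the 8 members, namely Pax5, Cd79a, Cd22 and Ebf1, with 5 windows in all. Both stretches run 5′ to 3′ on the strand of the gene. Capitals mark GGGAAT, a half-site of the EBF motif.
Cd79a, chr7:24897247-24897380, plus strand: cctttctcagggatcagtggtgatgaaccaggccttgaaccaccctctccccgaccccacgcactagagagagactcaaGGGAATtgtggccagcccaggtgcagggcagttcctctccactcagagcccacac
Pax5, chr4:44710695-44710944, minus strand: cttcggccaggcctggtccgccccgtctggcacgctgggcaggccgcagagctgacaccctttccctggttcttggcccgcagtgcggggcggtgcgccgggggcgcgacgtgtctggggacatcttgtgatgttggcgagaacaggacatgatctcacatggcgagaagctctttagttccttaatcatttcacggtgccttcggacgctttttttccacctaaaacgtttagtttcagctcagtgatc

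Further patterns were searched on both strands of these windows. They were the EBF palindrome CCCNNGGG, which 13.7% of 32851 promoter windows held, the half-site GGGAAT, which 13.1% held, and the octamer ATGCAAAT, which 1.74% held. The half-site stood 171 bases upstream of the RefSeq start of Cd79a on the strand of the gene; GENCODE places the start of the gene farther upstream, at 24897381, just after the printed stretch. Cd22 held the palindrome 48 bases upstream of the start of its window, and the second of the Ebf1 windows held a half-site at 208 bases on the other strand. In the Pax5 window none of these letters was found. A match of letters is a description of the DNA and not a measured binding site.

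Ms4a1 encodes CD20, a membrane protein carried by B cells from the pre-B stage until they become plasma cells. It lies on chromosome 19 from 11249675 to 11266241 on the minus strand. Its levels were 0.480, 0.810, 0.752 and 0.143 CPM in libraries 1 to 4 labelled Alox15-/-, and 2.50, 2.71, 3.61 and 4.18 CPM in WT libraries 1 to 4. Every WT library was thus above every library labelled Alox15-/-, and the groups did not overlap. The means were 0.546 ± 0.305 CPM and 3.25 ± 0.785 CPM (SD, n = 4 each), a log2 fold change of -2.64 ± 0.44 (SE), or 6.22-fold higher in the WT libraries.

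These levels rest on few tags. Ms4a1 had 2, 3, 4 and 1 counts in the libraries labelled Alox15-/- and 16, 17, 36 and 20 counts in the WT libraries. From the summed counts of 10 and 89, relative to the summed library sizes, the ratio of WT to the libraries labelled Alox15-/- was 6.55 with a 95% interval of 3.40 to 14.1, which covers counting error only. In 3 of the 8 libraries the gene was at or under a floor of 3 counts.

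A gene entered the test only if 4 or more libraries reached 2 CPM, which left 12700 genes. Ms4a1 reached 2 CPM in 4 WT libraries and in 0 libraries labelled Alox15-/-, so it passed only through the group in which it was high. Over all tested genes 1.24% were called past the adjusted threshold of edgeR's quasi-likelihood test, 1.05% as higher and 0.197% as lower in the libraries labelled Alox15-/-. Since the choice of the genes used this contrast, no count of members is read against these shares.

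The groups overlapped for the other surface proteins. Cd22, an inhibitory receptor of the sialic acid-binding family that dampens antigen receptor signals, was at 0, 0.810, 0.564 and 0.286 CPM in the libraries labelled Alox15-/- and at 0, 0.319, 1.91 and 0.209 CPM in the WT libraries. WT library 3 alone held 19 of the 22 WT counts, and the groups overlapped. Its log2 fold change was -0.83 ± 0.71 and turned to 1.11 without WT library 3.

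Ly6d, a GPI-anchored protein that marks early precursors committed to the B cell fate, was at 4.56, 0.810, 1.69 and 3.005 CPM in the libraries labelled Alox15-/- and at 3.75, 5.26, 1.20 and 7.73 CPM in the WT libraries. The groups overlapped, with WT library 3 below 3 of the libraries labelled Alox15-/-, and the log2 fold change was -0.73 ± 0.51. Values ran from -0.34 without WT library 4 and -0.48 without library 2 labelled Alox15-/- to -1.09 without WT library 3. WT library 3 was therefore the highest WT library for Cd22 and the lowest for Ly6d.

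The groups also overlapped for the signal partners of the antigen receptor. Cd79a was at 1.20, 1.08, 1.32 and 2.00 CPM in the libraries labelled Alox15-/- and at 0.936, 3.35, 3.51 and 0.835 CPM in the WT libraries. WT libraries 2 and 3 were the highest of all 8, and WT libraries 1 and 4 the lowest. The log2 fold change was -0.66 ± 0.43 and the groups overlapped. It was -0.43 without WT library 2 and -0.27 without WT library 3.

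Cd79b, which forms a dimer with CD79a, was at 3.60, 4.32, 4.14 and 4.15 CPM in the libraries labelled Alox15-/- and at 2.03, 3.67, 6.22 and 2.51 CPM in the WT libraries. The libraries labelled Alox15-/- lay inside the WT range, and the log2 fold change was 0.11 ± 0.33. Its sign turned without WT library 1 (-0.09) and without WT library 4 (-0.02), and it was 0.57 without WT library 3. For both receptor partners, as for Cd22, WT library 3 was the highest and WT library 2 the next, whereas for Ms4a1 the highest WT library was 4.

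Ighm, the constant region of the IgM heavy chain, stood far above the other members. It was at 303, 284, 256 and 204 CPM in the libraries labelled Alox15-/- and at 263, 281, 281 and 197 CPM in the WT libraries. The means were 262 ± 43.2 CPM and 256 ± 40.0 CPM (SD, n = 4 each), and the log2 fold change was 0.03 ± 0.14, with values from -0.07 to 0.14 when single libraries were left out. The gene was counted 943 to 2796 times per library, so it is the member measured with the least counting error.

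The lambda light chain genes were low in every library. Iglc1, Iglc2 and Iglc3, constant regions of the lambda light chain, were each between 0 and 2.11 CPM in the 8 libraries. Rows for 5 variable segments were listed, and their levels summed to between 0 and 1.20 CPM per library. Since MACE-seq counts tags at the 3′ end, these levels are in CPM and were not divided by transcript length. Iglc2 and Iglc3 are close copies of each other, so tags may be split between them.

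The transcription factors were low in both groups. Ebf1, which commits progenitors to the B cell fate, was at 0.720, 0.810, 0.941 and 1.29 CPM in the libraries labelled Alox15-/- and at 1.09, 2.07, 2.21 and 3.55 CPM in the WT libraries. WT libraries 2, 3 and 4 were above every library labelled Alox15-/-, and WT library 1 was below library 4 of that group. The log2 fold change was -1.17 ± 0.47.

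Pax5, which keeps mature B cells in their lineage, was at 0.240, 0, 0.564 and 0.859 CPM in the libraries labelled Alox15-/- and at 0.624, 0.319, 1.20 and 1.04 CPM in the WT libraries. The groups overlapped, the gene was at or under 3 counts in 4 of 8 libraries, and the log2 fold change was -0.77 ± 0.67. It was -1.42 without library 4 labelled Alox15-/-, -0.47 without library 2 of that group and -0.43 without WT library 3. Ebf1 lies 25.7 Mb and Cd79b 36.0 Mb from Alox15 on chromosome 11, and the remaining members are on other chromosomes.

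**Figure D1:**
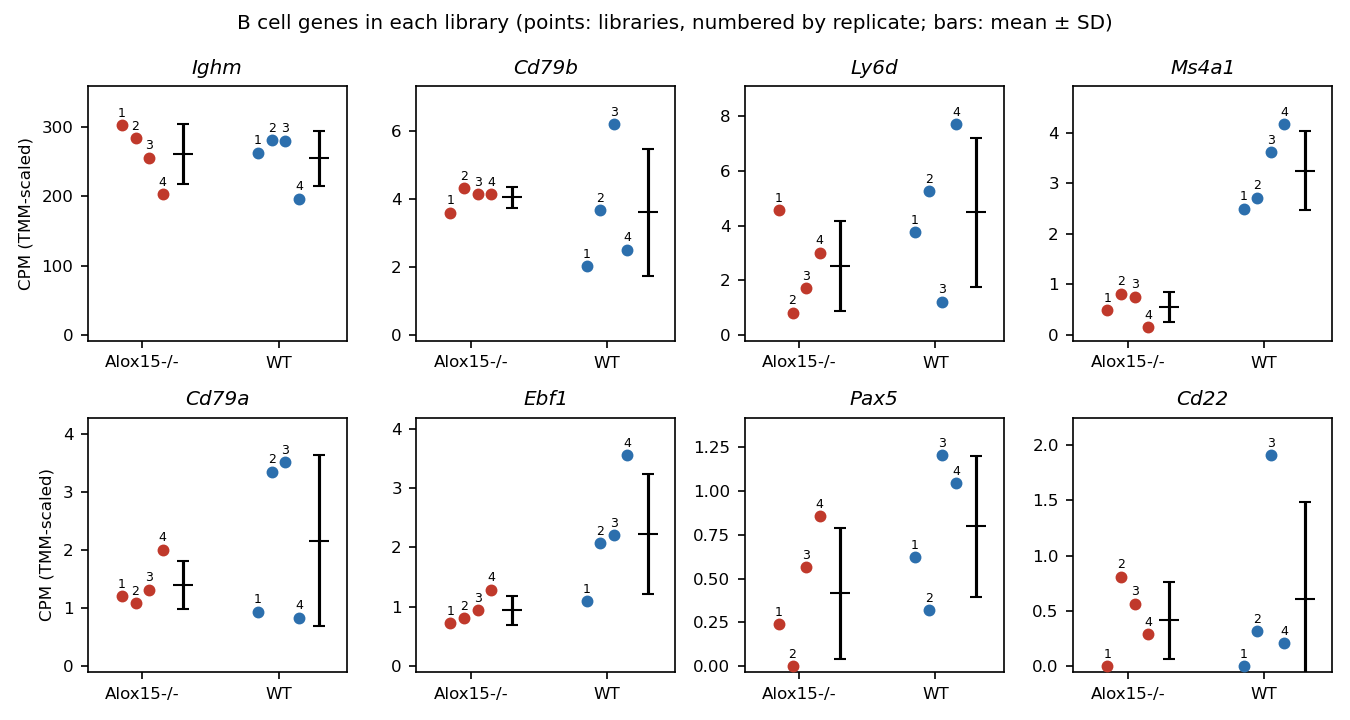
Level of the 8 measured members in each library, in TMM-scaled CPM on linear axes that differ between panels. Red points are the libraries labelled Alox15-/-, blue points are WT libraries, the digit is the replicate number, and bars give mean ± SD (n = 4). The groups are apart for Ms4a1 (at most 0.810 against at least 2.50 CPM) and overlap for the other 7 genes.

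Of the 8 measured members, 6 had a lower fitted level and 2 a higher fitted level in the libraries labelled Alox15-/-. The median log2 fold change of the 8, from a fit without the filter on low counts, was -0.76, against -0.01 over all listed genes. Without the filter 1.37% of the 28239 genes were called, 1.06% as higher and 0.319% as lower. Groups that did not overlap, with the libraries labelled Alox15-/- lower, were found for 1 of the 8 members, against 2.53% of the tested genes and 1.56% of all listed genes. The members were chosen on this contrast, so these values are descriptions and nothing is read from setting them beside all genes. Only 4 of the 8 passed the filter, namely Ms4a1, Cd79b, Ighm and Ly6d, and the values of Cd22, Cd79a, Ebf1 and Pax5 come from the fit without it.

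Ordered by mean level over the 8 libraries, Ighm stood at 259 CPM, followed by Cd79b (3.83), Ly6d (3.50), Ms4a1 (1.90), Cd79a (1.78), Ebf1 (1.59), Pax5 (0.607) and Cd22 (0.512). Ighm was above Cd79b, and Ebf1 above Pax5, in 8 of 8 libraries. Other neighbours in this order changed places from library to library. Cd79b was above Ly6d in 4 of 8 libraries, Ms4a1 above Cd79a in 3 of 8, and Pax5 above Cd22 in 4 of 8. The libraries with Ms4a1 above Cd79a were all WT, so the place of Ms4a1 in this order differs between the groups. Of 6 overlapping genes on the opposite strand that were looked for, 2 had a row, and both had few tags. 4930526L06Rik, which overlaps Ms4a1, was at 0 to 0.903 CPM, and Gm12462, within Pax5, had 1 count in all.

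Further B cell genes show how far the pattern of Ms4a1 was shared. A list of 67 such genes outside the members covered antibody chains, receptor components, signalling proteins, transcription factors, surface proteins and class II antigen presentation. Of these 40 passed the filter, 20 with a positive and 20 with a negative log2 fold change, and their median was 0.00, against -0.01 over all tested genes. In the fit without the filter the median was -0.13 over all 67, against -0.01 over all listed genes. It was -0.33 over 28 genes that the list did not mark as known from other leukocytes and 0.06 over the 39 it marked. The marks were set when the list was written and do not establish restriction to B cells. Of the 28, the 9 that passed the filter had a median of 0.02 in the fit with it, and the 19 that failed had a median of -0.56 in the fit without it. A low level in 1 group helps a gene to fail the filter, so nothing is read from that split. With edgeR's quasi-likelihood test 1 of the 40 rose and 0 fell in the libraries labelled Alox15-/-, against 1.05% higher and 0.197% lower over all tested genes, so a single call among 40 does not set the list apart. At an unadjusted p under 0.05 there were 4 higher and 3 lower. DESeq2 called 1 higher and 2 lower (Cd83 and Tcf3), and limma-voom 1 higher and 0 lower.

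The gene that rose was Igha, the constant region of the IgA heavy chain. Its levels were 15.4, 13.5, 17.3 and 9.59 CPM in the libraries labelled Alox15-/- and 5.62, 6.38, 7.63 and 7.31 CPM in the WT libraries, so the groups did not overlap. The log2 fold change was 1.03 ± 0.21 with an adjusted p of 0.0206 in edgeR's quasi-likelihood test. The call was lost when any of 5 libraries was left out, namely libraries 1, 2 or 3 labelled Alox15-/- (adjusted p up to 0.126) or WT libraries 1 or 2 (up to 0.0944). Without libraries 2 and 3 labelled Alox15-/- together, the adjusted p was 0.412 and the log2 fold change 0.86.

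The other antibody chains that passed the filter did not change by the test. Ighd, the IgD heavy chain of mature naive B cells, was at 4.15 to 5.28 CPM in the libraries labelled Alox15-/- and at 4.06 to 7.43 CPM in the WT libraries. Ighg3, an IgG subclass, was at 3.86 to 10.3 and at 1.25 to 12.8 CPM.

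The list genes with the highest levels are ones that T cells or other leukocytes also use. Irf8, a transcription factor shared by B cells and myeloid cells, was at 246 to 503 CPM in the libraries labelled Alox15-/- and at 307 to 452 CPM in the WT libraries. Foxp1, Irf4, Bach2 and Xbp1, transcription factors with roles in both B and T cells, had log2 fold changes of 0.11 ± 0.14, -0.38 ± 0.16, -0.16 ± 0.16 and -0.09 ± 0.11. The membrane proteins Cd37, Tnfrsf13b and Btla had values of 0.02 ± 0.11, -0.23 ± 0.12 and -0.21 ± 0.23, and Cd74, the invariant chain of class II molecules, -0.02 ± 0.15. Prkcb, a kinase downstream of the antigen receptor, stood at -0.03 ± 0.14. None of these 10 genes passed the test with the filter.

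At the ends of the list, Btk and Bank1, which relay antigen receptor signals, had log2 fold changes of 0.84 ± 0.36 and 0.73 ± 0.34. Ikzf3 and Cd24a followed at 0.47 ± 0.19 and 0.45 ± 0.32. The smallest values were those of Cd83 (-0.69 ± 0.18), Ccr6 (-0.65 ± 0.34), Tcf3 (-0.53 ± 0.14), Cd72 (-0.50 ± 0.32) and H2-DMb2 (-0.45 ± 0.50). Cd83 is an activation marker also carried by T cells, and Tcf3 encodes the E2A transcription factor used by both lymphocyte lineages. The adjusted p of Cd83 was 0.118 and that of Tcf3 0.121 in edgeR's quasi-likelihood test, and neither was called, although their groups did not overlap. With the replicate number as a block Cd83 was called (adjusted p = 0.0196 in that test).

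**Figure D2:**
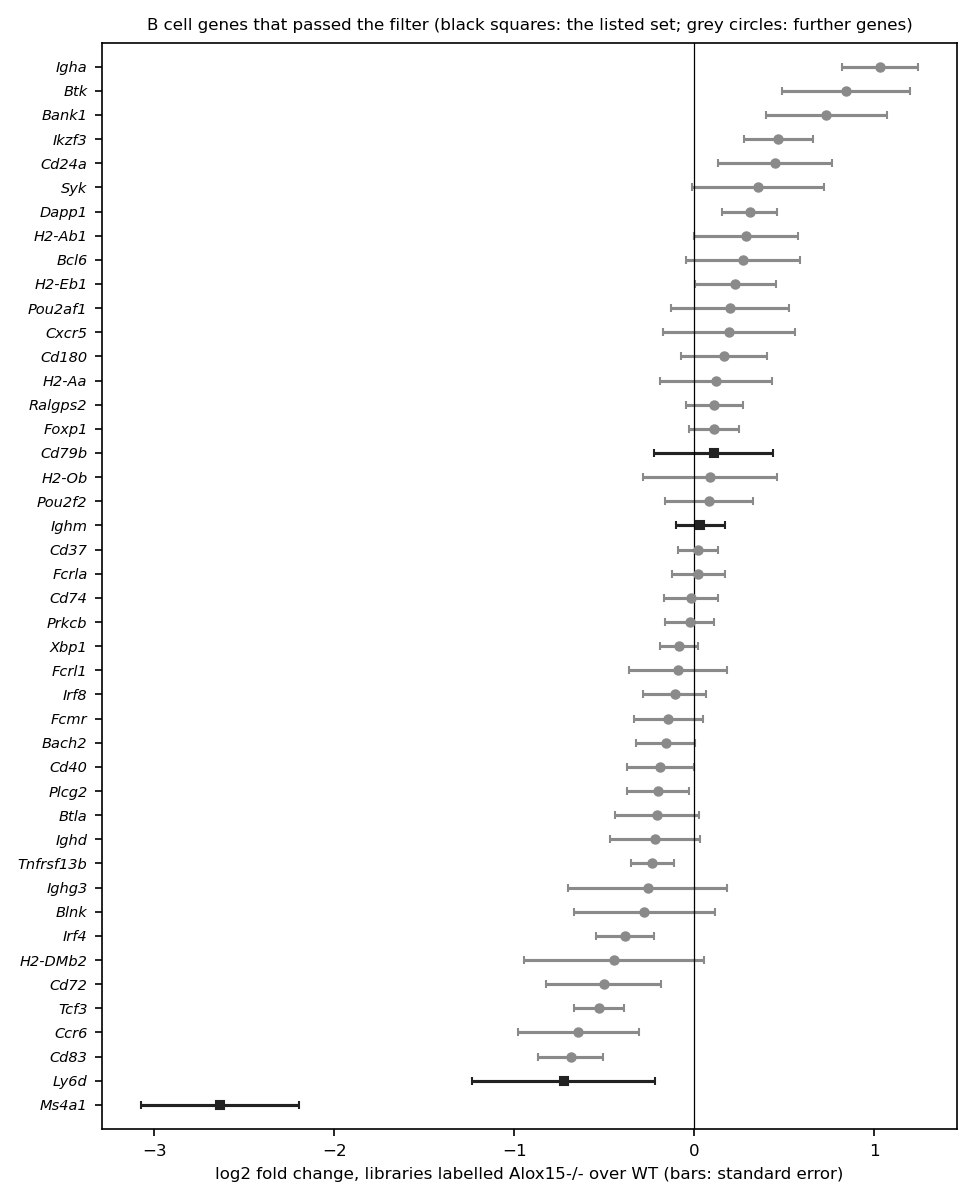
Log2 fold change of the libraries labelled Alox15-/- over the WT libraries for B cell genes that passed the filter, with bars of 1 standard error. Black squares are 4 members and grey circles are 40 further genes. Ms4a1 lies at -2.64, while the further genes lie between -0.69 and 1.03.

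The filter left out 27 of the 67 genes, among them several that mark mature B cells more strictly. The values of these genes come from the fit without a filter, in which p-values were smaller for 32 of the 40 tested genes. Their median standard error was 0.174 there, against 0.230 with the filter. In that fit 3 of the 67 genes were called higher (Igha, Jchain and Fcgr2b) and 5 lower (Fcer2a, Ighg2b, Cd83, Tcf3 and Irf4), against 1.06% higher and 0.319% lower over all 28239 listed genes. DESeq2 without the filter called 1 higher and 3 lower, and limma-voom called 0 in either direction. Fcer2a, Tnfrsf13c, Ighg2b, Jchain and Fcgr2b are described next and were chosen after their values were seen.

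Fcer2a, the low-affinity IgE receptor CD23 of follicular B cells, was at 0, 0.270, 1.13 and 0.859 CPM in the libraries labelled Alox15-/- and at 1.25, 3.99, 5.42 and 2.51 CPM in the WT libraries. The groups did not overlap. The log2 fold change was -2.41 ± 0.46 with an adjusted p of 3.2e-05 in edgeR's quasi-likelihood test and 0.112 with limma-voom, where it was not called. These values rest on few tags, 13 summed counts in the libraries labelled Alox15-/- and 99 in the WT libraries. Fcer2a was at or under 3 counts in 2 of 8 libraries.

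Tnfrsf13c, the receptor for the survival factor BAFF, was at 0.480, 0.810, 0.564 and 0.286 CPM in the libraries labelled Alox15-/- and at 1.25, 2.39, 1.91 and 1.46 CPM in the WT libraries. Its groups also did not overlap, but with a log2 fold change of -1.79 ± 0.57 it did not pass the test (adjusted p = 0.105, edgeR's quasi-likelihood test). It had 10 summed counts in the libraries labelled Alox15-/- and 49 in the WT libraries, and was at or under 3 counts in 4 of 8 libraries. Ighg2b had a log2 fold change of -1.76 ± 0.51 (adjusted p = 0.0451 in the same test), with the groups overlapping at 0.240 to 1.13 and 1.04 to 3.19 CPM. That call was lost with DESeq2 (0.284) and limma-voom (0.205), with the replicate number as a block (0.0583), and without any of 6 single libraries, which were libraries 1, 2 and 4 labelled Alox15-/- and WT libraries 1, 2 and 3. Ighg2b resembles the other IgG constant genes in sequence, so its tags are less certain than those of Fcer2a.

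Jchain and Fcgr2b each lost their call when a single library was left out. Jchain, the joining chain of secreted IgM and IgA, was at 4.08 CPM in library 1 labelled Alox15-/- and at most 0.941 CPM in the other 7. Without that library its adjusted p moved from 0.00284 to 0.788 in edgeR's quasi-likelihood test. Fcgr2b, an inhibitory IgG receptor of B cells and myeloid cells, was at 0.720 to 3.78 CPM in the libraries labelled Alox15-/- and at 0.160 to 0.602 CPM in the WT libraries. Its adjusted p in that test was 0.0170, 0.328 without library 2 labelled Alox15-/- and 0.103 without WT library 2. Without the filter Jchain was also not called with DESeq2 (0.244), limma-voom (0.581) or the replicate number as a block (0.121), nor Fcgr2b with DESeq2 (0.124) or limma-voom (0.180).

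**Figure D3:**
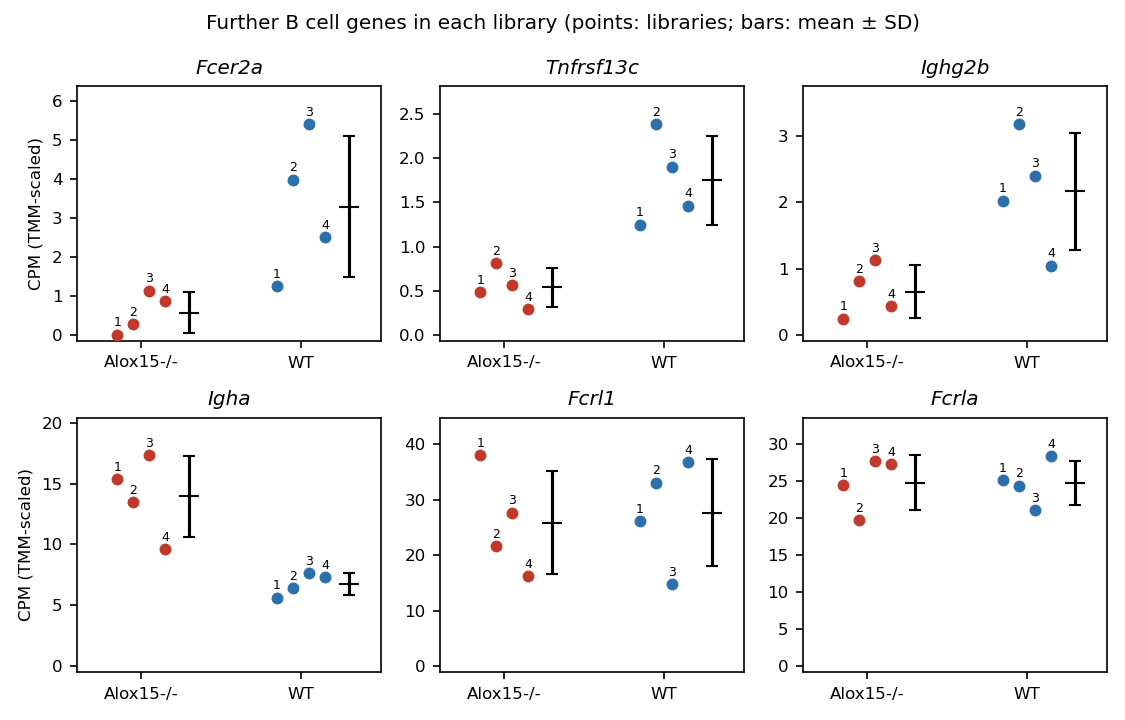
Levels of 6 B cell genes outside the members in each library, in TMM-scaled CPM on linear axes. Red points are the libraries labelled Alox15-/-, blue points are WT libraries, digits are replicate numbers, and bars give mean ± SD (n = 4). Fcer2a and Tnfrsf13c are lower in each of the 4 libraries labelled Alox15-/- than in any WT library, Ighg2b, Fcrl1 and Fcrla overlap, and Igha is higher (9.59 to 17.3 against 5.62 to 7.63 CPM).

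Summed over Ms4a1, Fcer2a and Tnfrsf13c, the level was 0.960, 1.89, 2.45 and 1.29 CPM in the libraries labelled Alox15-/- and 4.99, 9.09, 10.9 and 8.14 CPM in the WT libraries. The WT libraries were ordered 1, 4, 2 and 3 from low to high. Since these genes were put together after their values were seen, this sum is a description. The 28 genes that the list did not mark as known from other leukocytes gave another picture when summed. They reached 80.6 to 109 CPM in the libraries labelled Alox15-/- and 84.7 to 103 CPM in the WT libraries. That sum is carried by a few genes such as Fcrl1, a receptor of the Fc receptor-like family, at 16.2 to 37.9 and 14.8 to 36.8 CPM, and Fcrla, its intracellular relative, at 19.7 to 27.7 and 21.1 to 28.4 CPM.

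The profile of Ms4a1 over the 8 libraries was compared with those of the tested genes, a set from which the filter removed several B cell genes. Likeness was taken as the root mean square difference of log2(CPM + 0.5) after centring each gene on its mean, and the nearest were Gm16867 (0.321), Thrb (0.360), Lyrm7 (0.410), Galnt11 (0.522) and Tubd1 (0.553). Thrb encodes a thyroid hormone receptor, Galnt11 an enzyme that starts O-glycosylation and Tubd1 delta-tubulin. All of these nearest genes were also lower in the libraries labelled Alox15-/-, with groups that did not overlap. Ms4a1 was chosen on that difference, so the ranking largely restates it and is a description. The added 0.5 CPM also shrinks differences between low levels such as those of Ms4a1. Some genes under the filter, chosen for low levels in the same libraries and therefore given as a description, stood as follows. Tnfrsf13c at 0.485 would rank 4 among the tested genes, Ighg2b at 0.629 would rank 12, Ebf1 at 0.676 would rank 21 and Fcer2a at 0.733 would rank 42. The other members were farther, from Pax5 at 0.927 to Cd79b at 1.16, with Cd79a at 1.07 and Cd22 at 1.10. The remaining list genes under the filter were not compared.

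Several other genes of the Ms4a family were higher, not lower, in the libraries labelled Alox15-/-. Ms4a4b and Ms4a6b, which are known from T cells, and Ms4a4c rose by log2 fold changes of 0.65 ± 0.15, 0.71 ± 0.12 and 1.22 ± 0.21, with adjusted p of 0.0476, 0.00480 and 0.00503 in edgeR's quasi-likelihood test. Ms4a2, the beta chain of the high-affinity IgE receptor of mast cells and basophils, rose by 3.82 ± 0.55 (adjusted p = 0.00120 in the same test), from 0.312 to 1.25 CPM in the WT libraries to 3.58 to 23.2 CPM. Ms4a6c had a log2 fold change of 0.37 ± 0.20 and was not called.

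Marker genes of other cells moved with the groups in the opposite direction to Ms4a1. The summed level of 6 erythroid markers was 902 to 3467 CPM in the libraries labelled Alox15-/- and 32.8 to 122 CPM in the WT libraries. Sums of 7 mast cell and basophil markers were 108 to 321 and 26.5 to 47.0 CPM, of 7 myeloid markers 42.9 to 321 and 8.83 to 14.5 CPM, and of 7 NK and gamma-delta T cell markers 78.8 to 141 and 25.4 to 41.5 CPM. In each of these sums the groups did not overlap. Most of the last sum came from the gamma-delta gene Trdc, with means of 65.3 and 18.3 CPM. Among its NK genes Klrd1 was higher without overlap (7.44 to 14.8 against 2.07 to 5.42 CPM). Klrb1c, Ncr1 and Eomes overlapped between the groups, and none of them was called higher. Of the markers 5 of 6 erythroid, 6 of 7 mast cell and basophil, 5 of 7 myeloid and 4 of 7 NK and gamma-delta T cell genes rose by edgeR's quasi-likelihood test, and 0 of these markers were at 0 in all libraries. The sum of 4 dendritic cell markers overlapped at 3.29 to 6.75 and 2.91 to 4.47 CPM. T cell and Treg markers were present in every library. The sum of 8 T cell markers was 2054 to 2373 and 2261 to 2632 CPM, although Cd4 was lower and Cd3g higher without overlap between the groups. The sum of 6 Treg markers was 1688 to 1839 and 1775 to 1970 CPM. Il2ra made up its largest part, with means of 764 and 829 CPM, so the sum alone does not establish Treg identity. Foxp3, the defining Treg factor, was at 71.3 to 113 and 92.9 to 194 CPM.

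The erythroid, myeloid, and NK and gamma-delta T cell sums were highest in libraries 2 and 3 labelled Alox15-/-, and the mast cell and basophil sum in libraries 2 and 1. Without libraries 2 and 3 of that group the log2 fold change of Ms4a1 was -3.48 and that of Fcer2a was -2.68. These libraries held the 2 highest levels of Ms4a1 in that group, from 3 and 4 counts against 2 and 1 in libraries 1 and 4, so leaving them out lowers the mean that remains. For Fcer2a the order differed, with libraries 3 and 4 highest (1.13 and 0.859 CPM). The part of other cell types in the levels of the B cell genes was not tested.

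**Figure D4:**
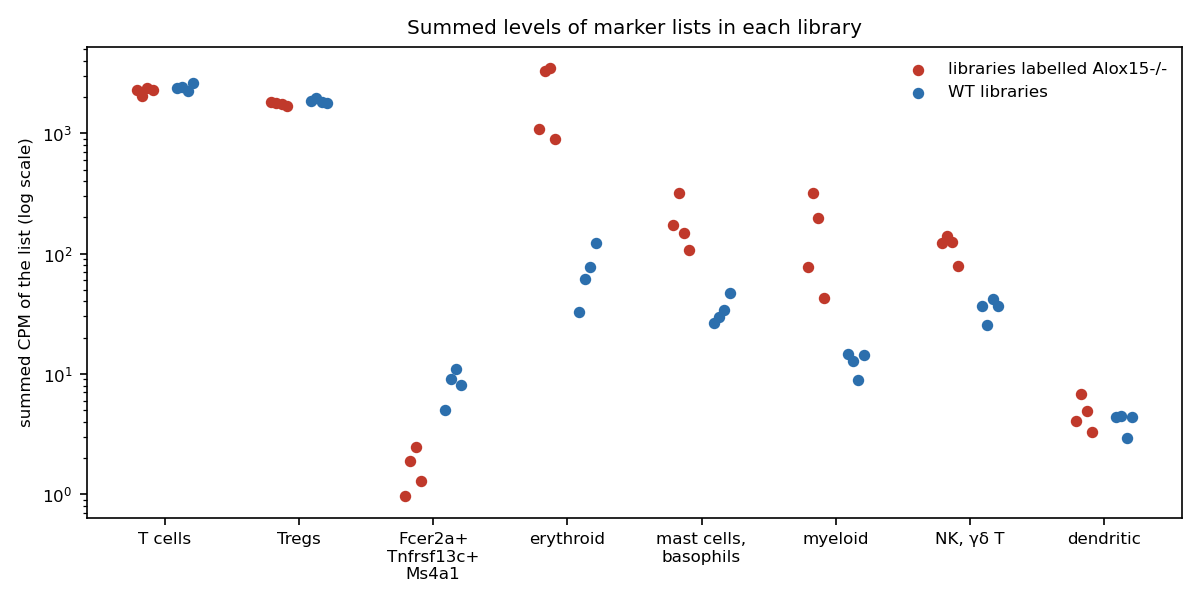
Summed level of marker lists in each library, in TMM-scaled CPM on a log axis. Red points are the libraries labelled Alox15-/- and blue points are WT libraries. The sum of Ms4a1, Fcer2a and Tnfrsf13c is lower in the libraries labelled Alox15-/- (0.960 to 2.45 against 4.99 to 10.9 CPM). These genes were put together after their values were seen and do not stand for B cell genes as a whole. The sum of 28 further B cell genes overlapped between the groups and is not plotted. The erythroid, mast cell and basophil, myeloid, and NK and gamma-delta T cell sums are higher.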

How the data were processed

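Raw counts per gene symbol, without normalization, were deposited by the authors in 1 table for 4 libraries labelled Alox15-/- and 4 WT libraries. The submitters' processing notes name Bowtie, edgeR and the GRCm38 build, without saying what each was used for. The labels name a small RNA kit, but the kit in the methods is the MACE-Seq Kit of that company. Whether duplicate tags were removed and whether counting used strand is not given in the sources used here. Columns of no sample numbered 0.

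Genes that reached 2 CPM in 4 or more libraries (12700) were scaled by TMM and compared with the two-sided quasi-likelihood test of edgeR 4.0.16 in R 4.3.3, with Benjamini–Hochberg adjustment over all genes tested and a threshold of 0.05. The filter, edgeR and the adjustment follow the methods. The biological coefficient of variation was 14.5%. Genes under the filter were taken from the same fit without it. The F statistic gave each standard error, as the log2 fold change over the root of F. The code was tested on simulated data. Positions came from GENCODE for GRCm38 and promoters from RefSeq (GRCm38.p6).

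The members and lists were chosen with earlier results of these data known, and 1 gene of the lists is not reported here. Named genes were the members, Alox15, list genes past the threshold, the 10 highest by level and the 5 at each end by fold change, the 5 nearest to Ms4a1, and members of its family of at least 2 CPM. Fcrl1, Fcrla, the lambda chains, and the genes said to be so in the text were chosen after their values were seen. Alternatives used DESeq2 1.42.0, limma 3.58.1, other scalings and filters, the replicate number as a block, and each library left out. Replicate numbers were checked for pairing. Python 3.11.15 with pandas 2.3.3, scipy 1.17.1 for intervals and matplotlib 3.10.9 for figures was used.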

Additional observations from a re-analysis of the deposited data

Results flagged for a closer look

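Of 98 groups of 4 libraries examined with Dixon's test at the 95% level, 3 had a library far from the other 3, and chance alone flags about 1 in 20 groups. Cd22 was at 1.91 CPM in WT library 3, the highest of its group. Gm16867, the gene nearest to Ms4a1 in profile, was at 6.92 CPM in WT library 3, also the highest. The dendritic cell markers summed to 2.91 CPM in WT library 3, the lowest of the WT libraries.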

How the results depend on the processing

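The count of list genes called was 1 in the filtered edgeR quasi-likelihood test. It was 8 with no filter, 3 with edgeR's likelihood-ratio test, 3 with DESeq2 and 2 with the replicate block (Igha and Cd83). With single libraries left out it was 0 to 2, and 0 without libraries 2 and 3 labelled Alox15-/-, an alternative chosen after seeing the data that tests with fewer libraries. Under other scalings, filterByExpr, the robust test and limma-voom it stayed 1. Same-numbered libraries of the groups correlated from -0.178 to 0.165 in their deviations, and 1 of 4 libraries labelled Alox15-/- correlated best with its own number, so the numbers were not taken to pair the libraries. The number of members with a lower fitted level was 6, and 5 to 8 with single libraries left out. The log2 fold change of Ms4a1 was -2.65 with the block and -2.91 to -2.21 without single libraries labelled Alox15-/-. It fell under the filter without any WT library, and in the fit with no filter it was -2.76 to -2.53 without single WT libraries. Alternatives to the fit without the filter were planned for Cd22, Cd79a, Ebf1 and Pax5, apart from leaving out libraries 2 and 3 labelled Alox15-/- together. For Ms4a1, Fcer2a, Ighg2b, Tnfrsf13c, Jchain and Fcgr2b they were added after seeing the data. The 7 members under 5 CPM on average rest on few tags, which limits their precision.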
